A study of Homo sapiens with 18 samples.

Results

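The effect of calcitonin gene-related peptide (CGRP) was measured by RNA sequencing in Cal27 cells grown for 24 hours in medium that held the glucose analogue 2-deoxy-D-glucose (2-DG). Cal27 is an established line of human squamous carcinoma cells, given in the labels with tongue mucosa as its tissue. The comparison used 6 of the study's 18 libraries, taken by their labels: 3 with CGRP and 3 controls, all in high-glucose DMEM with 5 mM 2-DG. The other 12 libraries were the same pair of treatments in high-glucose DMEM and in glucose-deprived DMEM, with 3 libraries in each of the 6 groups. The groups labelled TG received 10 nM rhCGRP and those labelled capTG were controls, so the controls of this comparison carried 2-DG as well. The study's design text calls the replicates biologically independent. The growth protocol mentions only that the cells were given different CM, a term it does not spell out, and whether the treated and control media differed in anything besides CGRP is not given in the sources used here. All libraries came from 1 cell line at 1 time point.

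CGRP is a peptide of sensory nerves, which also supply the tongue. Its receptor joins the calcitonin receptor-like receptor CALCRL to the accessory protein RAMP1, and it couples through a stimulatory G protein to adenylate cyclase, cyclic AMP and protein kinase A. The analogue 2-DG is taken up like glucose and phosphorylated by hexokinase, but it is not carried through glycolysis. It also competes with mannose when the sugar chains of N-glycoproteins are built, so that proteins fold poorly in the endoplasmic reticulum (ER) and the unfolded protein response raises chaperones such as HSPA5. The integrated stress response, through the transcription factor ATF4, raises genes of amino acid synthesis and uptake in the same state.

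The libraries held between 28038260 and 32661768 counts, and levels are given as CPM, the count of a gene relative to the effective size of its library. Keratinocyte markers added up to between 5109 and 5576 CPM in the 6 libraries, with KRT5, KRT14, TP63 and EPCAM detected in each, and none of the 10 markers passed the test between the groups. Markers of other cell types were low but not all level. Their sums, controls against CGRP, were 18.1 to 19.7 against 24.4 to 25.4 CPM for fibroblasts, 21.4 to 25.2 against 39.8 to 43.8 CPM for endothelium, 5.85 to 7.75 against 8.62 to 10.3 CPM for leukocytes, 23.0 to 23.9 against 31.4 to 36.4 CPM for neurons and 27.9 to 28.6 against 34.8 to 41.5 CPM for Schwann cells. In each of these 5 lists 1 tested member rose: COL1A1 of 4, CDH5 of 2, PTPRC of 3, NEFM of 6 and NGFR of 2. CALCA and S100B had 0 counts in all 6 libraries. The part of these markers in the results was not tested, and in bulk RNA fewer cells of a type and less RNA per cell cannot be told apart. Control 2 stood apart from its mates. It lay over 0.5 log2 units from both other controls in 781 genes, against 0 to 6 genes for the other 2-DG libraries, and its deviation followed transcript length, from a median of 0.14 in the second and the third of 10 length bins to -0.31 in the longest. The second glucose-deprived CGRP library deviated in the same way, in 2556 genes. Of the 2216 genes called below, 15 had control 2 outside the range of its mates by over 0.5 log2 units. A gene with such a spread is less readily called, so the 15 does not measure how far the calls rest on control 2. Without control 2, 1549 of the 2216 were still called, 682 of the 964 that rose and 867 of the 1252 that fell. Without it and the glucose-deprived CGRP library 2, 2155 were still called in the same direction.

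**Figure D1:**
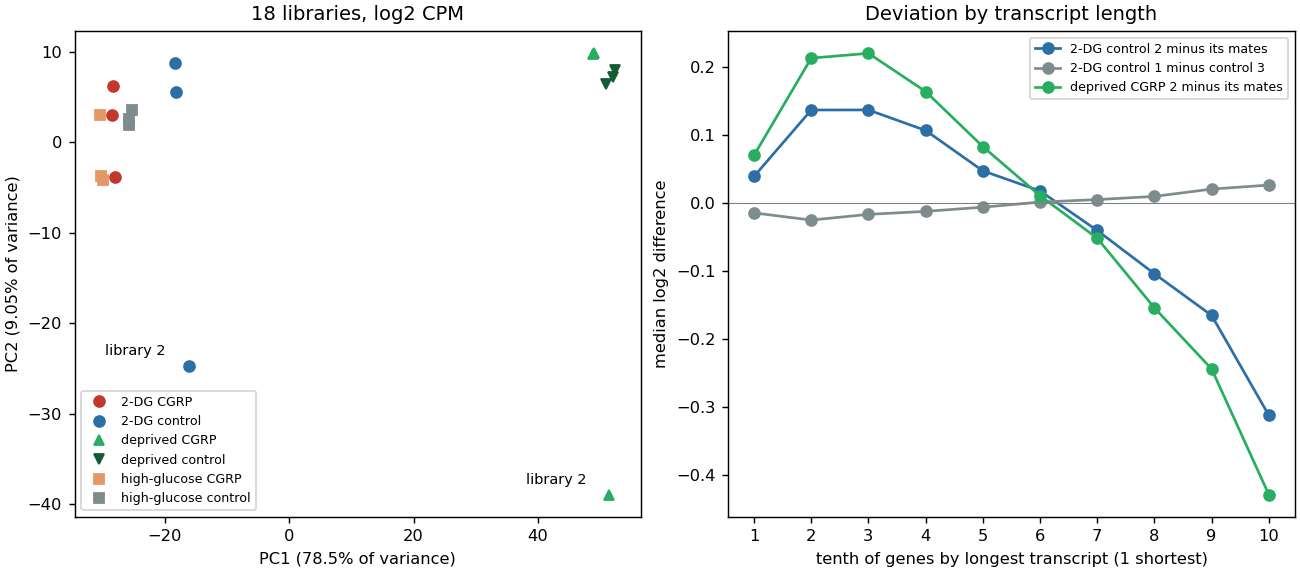
Left, the first 2 principal components of the 18 libraries, which hold 78.5% and 9.05% of the variance, with a point per library. Right, the median deviation of a library from its mates (log2) in 10 bins of transcript length: 2-DG control 2 and the second glucose-deprived CGRP library fall with length, to -0.31 and -0.43 in the longest bin.

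With CGRP in 2-DG medium, 964 genes rose and 1252 fell among the 18159 tested (edgeR's quasi-likelihood test, Benjamini-Hochberg adjusted p below 0.05), which is 12.2% called, 5.31% upward and 6.89% downward. Fold changes are log2 of CGRP over control with a standard error (SE). The SE, also for differences between media, was computed back from the test, as the size of the change over the square root of its F statistic. The median over all genes was -0.01, and every adjusted p below is from that test. At least 2-fold changes were made by 115 of the genes that rose and 99 of those that fell. The direction of the split depended on the scaling: with libraries scaled to their total counts, 1265 genes rose and 954 fell. Without control 2, 802 rose and 983 fell. Without both control 2 and the glucose-deprived CGRP library 2, whose spread enters the fit, 2276 rose and 2957 fell (12.5% and 16.3%). Without the glucose-deprived library alone 3856 were called, without CGRP 2 of the 2-DG groups 1474, and without CGRP 3 of them 1463. In 2524 genes all CGRP libraries lay above all controls (13.9%), and in 2879 all lay below (15.9%).

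The 10 largest falls by the naming rule included secreted ligands, a transcription factor, an envelope protein, a transporter and a non-coding RNA. INHBE, a subunit of activin E, had 2.49, 2.67 and 1.91 CPM in the controls and 0.313, 0.451 and 0.23 CPM with CGRP, and its log2 change of -2.81 ± 0.22 (adjusted p = 5.5e-07) was the largest fall among the genes named. CSF2, the cytokine GM-CSF, stood at 53.5, 65.9 and 51.2 CPM in the controls and 16.3, 13.6 and 17.2 CPM with CGRP (-1.86 ± 0.10, adjusted p = 1.4e-08). FOSL1, the AP-1 subunit FRA-1, stood at 93.8, 111 and 92.2 CPM in the controls and 31.8, 31.3 and 33.7 CPM with CGRP (-1.62 ± 0.09, adjusted p = 1.7e-08). In each of these 3 genes the highest CGRP library lay far below the lowest control. HBEGF, a ligand of the EGF receptor, stood at 93.2, 101 and 95.8 CPM in the controls and 35.2, 31.6 and 39.6 CPM with CGRP (-1.45 ± 0.08, adjusted p = 1.4e-08). GPR3, a receptor that signals through cyclic AMP without a known ligand, stood at 3.997, 5.48 and 4.68 CPM in the controls and 1.91, 1.74 and 1.94 CPM with CGRP (-1.34 ± 0.17, adjusted p = 6.7e-05). The other large falls were SPRR1A, a precursor of the cornified envelope (-1.59 ± 0.21), the ERK feedback inhibitor SPRY4 (-1.52 ± 0.22), the lipoprotein lipase inhibitor ANGPTL4 (-1.44 ± 0.17), the long non-coding RNA HCG20 (-1.41 ± 0.28) and the amino acid transporter SLC43A1 (-1.33 ± 0.19). These 10 genes were chosen among those whose groups did not overlap, and each kept its call without any 1 of the 18 libraries. The mean level in the naming rule is over all 18 libraries. INHBE stood at 30.9 CPM in the glucose-deprived CGRP group and 26.5 CPM in the glucose-deprived controls, and SLC43A1 at 5.29 and 5.56 CPM.

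The 10 largest rises by the naming rule were in genes of low level. That rule asks for a mean log2 CPM of at least 1, which 17 of the 115 rises of at least 2-fold reach. Larger rises were called below that level, among them genes such as GNLY with 0 counts in each control, which are given further below. LYPD1, of the Ly6 family of surface proteins, stood at 2.77, 3.52 and 3.82 CPM in the controls and 9.07, 9.37 and 8.46 CPM with CGRP (1.41 ± 0.11, adjusted p = 8.4e-07). MAB21L4 stood at 0.799, 1.13 and 0.989 CPM in the controls and 3.33, 3.12 and 2.90 CPM with CGRP (1.68 ± 0.19, adjusted p = 2.1e-05). The vasoactive peptide gene EDN2 (endothelin 2) stood at 3.94, 3.59 and 3.89 CPM in the controls and 9.38, 9.11 and 9.57 CPM with CGRP (1.30 ± 0.29, adjusted p = 0.0074). Controls and CGRP libraries were apart in all 3, by more than the spread within either group. METTL7A (1.47 ± 0.18), the surface sialomucin CD34 (1.31 ± 0.18), the p38 kinase activator MAP2K6 (1.25 ± 0.17), the aldo-keto reductase AKR1B10 (1.25 ± 0.20), the squamous cell serpin SERPINB3 (1.22 ± 0.15), the beta-glucan receptor CLEC7A (1.21 ± 0.14) and the tight junction scaffold TJP3 (1.21 ± 0.17) made up the 10. They too were chosen among genes whose groups did not overlap, and no single library took a call away.

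**Figure D2:**
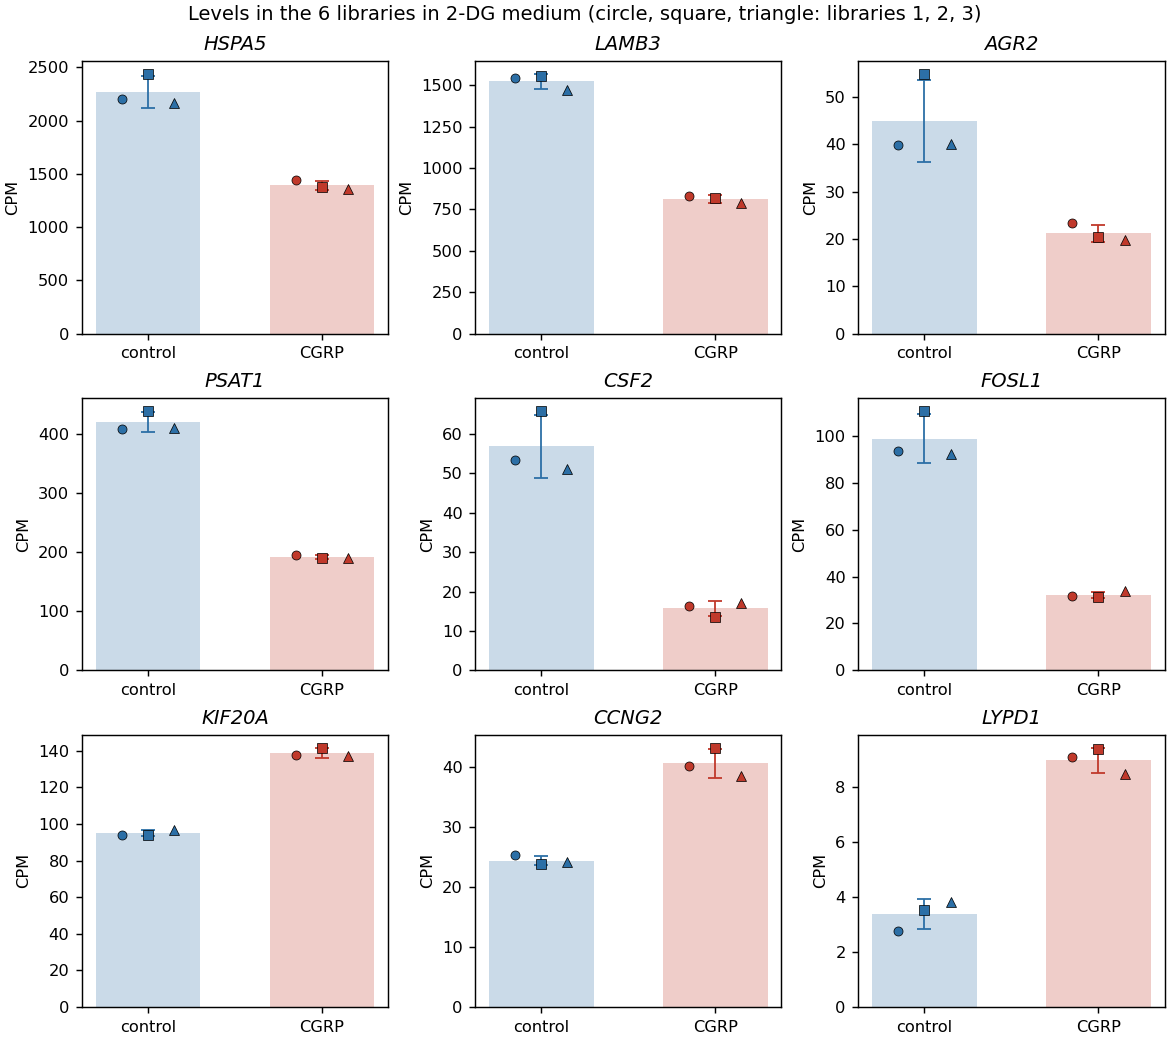
CPM of 9 genes in the 6 libraries of 2-DG medium (bars, mean of 3; error bars, SD; markers, libraries 1 to 3). HSPA5, LAMB3, AGR2, PSAT1, CSF2 and FOSL1 are lower in all 3 CGRP libraries than in any control, and KIF20A, CCNG2 and LYPD1 are higher.

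**Figure D3:**
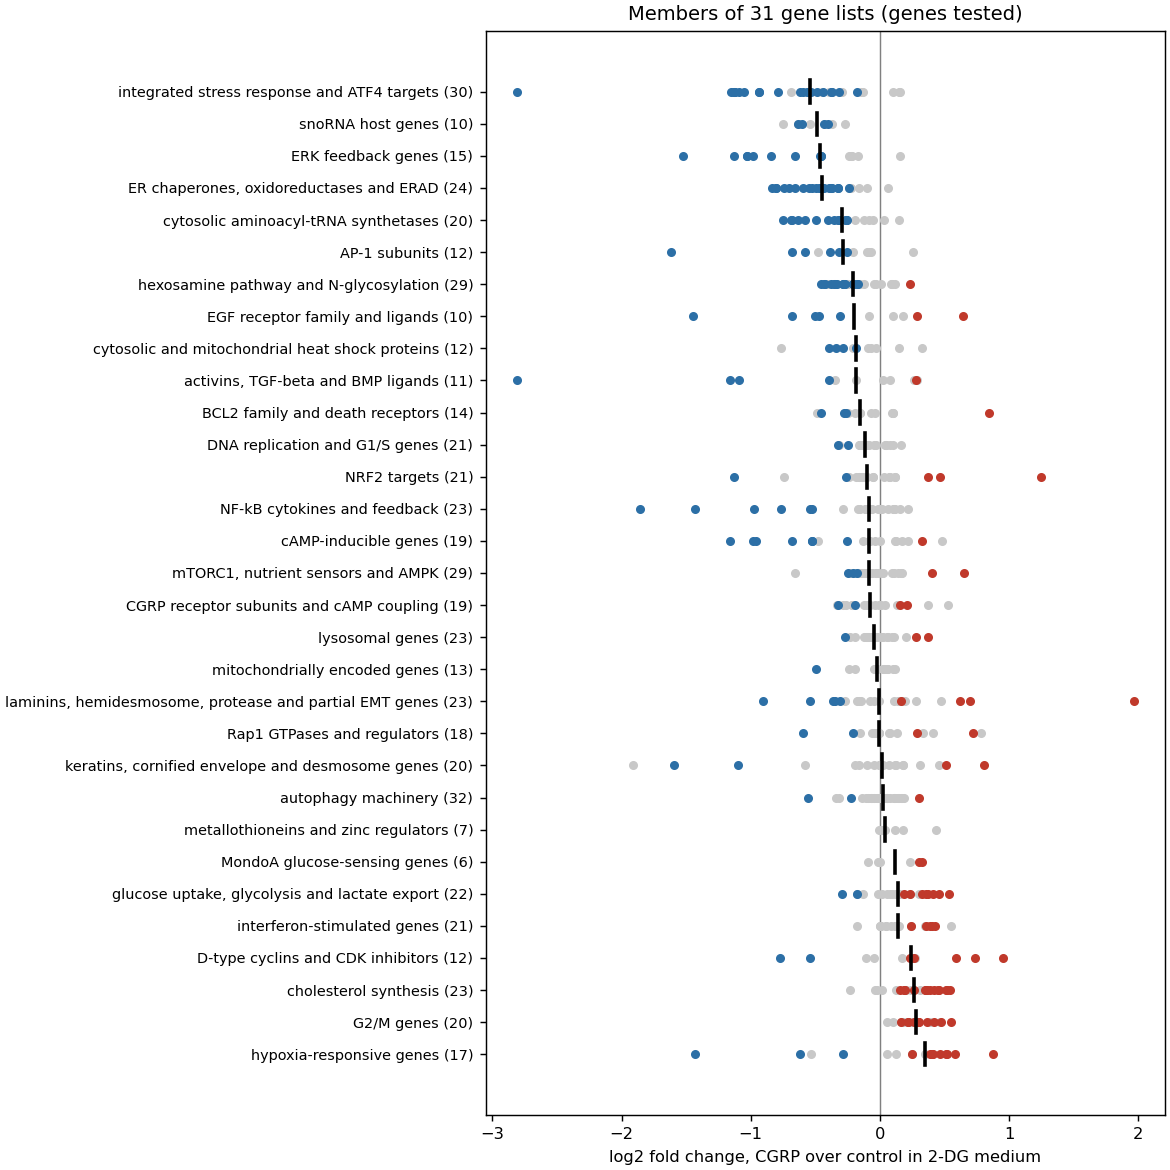
Log2 fold change of CGRP over control in 2-DG medium for the tested members of 31 gene lists, ordered by their medians (black bars). Red members rose, blue members fell and grey ones did not pass; the lists of the integrated stress response, snoRNA hosts, ERK feedback and ER genes have the lowest medians, and those of hypoxia, G2/M and cholesterol synthesis lie among the highest.

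The receptor subunits themselves were expressed and did not pass the test. CALCRL stood at 5.20, 2.94 and 4.78 CPM in the controls and 6.46, 6.63 and 5.56 CPM with CGRP (0.52 ± 0.18, adjusted p = 0.079), a difference that passed without control 1 (adjusted p = 0.043) and without the glucose-deprived CGRP library 2 (0.040). RAMP1 stood at 20.1, 29.4 and 19.6 CPM in the controls and 22.5, 19.8 and 22.2 CPM with CGRP (-0.10 ± 0.17, adjusted p = 0.79), its groups overlapped, and the sign of the change turned without control 2 (0.12). Of the 19 tested genes of the receptor and its coupling, 2 rose and 2 fell, with a median of -0.08. The shares over all genes, 5.31% that rose and 6.89% that fell, are the background for this list and those that follow. ADCY3, an adenylate cyclase, fell from 101, 93.7 and 102 to 76.3, 81.4 and 78.3 CPM (-0.33 ± 0.06, adjusted p = 0.0018) in every leave-one-out fit. The protein kinase A subunits PRKACA (0.21 ± 0.06) and PRKAR1A (0.16 ± 0.04) rose, and CRCP, the receptor component protein, fell (-0.19 ± 0.06). These 3 calls were weak. PRKACA lost its call without CGRP 2, CGRP 3 or control 3, PRKAR1A and CRCP without any CGRP library or control 2, PRKAR1A also without control 3 and CRCP also without the glucose-deprived control 2. The number that rose was then 1 without CGRP 1 or control 2 and 0 without CGRP 2, CGRP 3 or control 3, and the number that fell was 1 without CGRP 1, CGRP 2, CGRP 3, control 2 or the glucose-deprived control 2, and 4 without the glucose-deprived CGRP library 2.

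Genes that cyclic AMP is known to induce fell more often than they rose. Of 19 tested, 1 rose and 7 fell, with a median of -0.09, and the counts were the same without control 2. EGR1, an immediate early zinc finger factor, stood at 86.1, 84.4 and 89.1 CPM in the controls and 42, 42.7 and 46.8 CPM with CGRP (-0.98 ± 0.11, adjusted p = 2.8e-05). INHBA, the activin A subunit, stood at 149.96, 112 and 136 CPM in the controls and 55.6, 62.2 and 60.4 CPM with CGRP (-1.16 ± 0.22, adjusted p = 0.0021). For both, no CGRP library came near the lowest control. CREB5 (-0.96 ± 0.16), AREG (-0.68 ± 0.14), IRS2 (-0.52 ± 0.10), ATF3 (-0.25 ± 0.06) and the nuclear receptor NR4A1 (-0.53 ± 0.12) also fell, NR4A1 not without CGRP 3 (adjusted p = 0.060). CITED2, a coactivator-binding protein, was the 1 that rose, from 30.3, 30.6 and 29.1 to 37.4, 37.1 and 38.4 CPM (0.33 ± 0.06). Several of the best known targets did not pass: NR4A2 (0.12, adjusted p = 0.67), PER1 (0.17, 0.28), CREM (-0.04, 0.82), PDE4D (0.12, 0.56), PPARGC1A (0.48, 0.16) and FOS (-0.48, 0.12).

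ERK signalling has its own transcriptional feedback, in which SPRY and DUSP proteins damp the pathway and ETV4 and ETV5 carry it to the genome. Of the 15 tested members of that list 10 fell and none rose, with a median of -0.46, and 11 fell without control 2. DUSP6, the ERK phosphatase, stood at 51.6, 47.9 and 51.3 CPM in the controls and 22.8, 21.7 and 24.2 CPM with CGRP (-1.13 ± 0.08, adjusted p = 2.6e-07). The ETS factor ETV5 stood at 35.8, 34.1 and 31.9 CPM in the controls and 16.5, 16.8 and 16.7 CPM with CGRP (-1.03 ± 0.07, adjusted p = 8.8e-08), and PHLDA1, an early response gene, at 181, 168 and 179.7 CPM in the controls and 96.6, 98.2 and 99.6 CPM with CGRP (-0.84 ± 0.05, adjusted p = 1.4e-08). Values with CGRP lay well under those of every control in all 3. ETV4 (-1.03 ± 0.09), DUSP5 (-0.66 ± 0.06), DUSP4 (-0.45 ± 0.09), EPHA2 (-0.46 ± 0.10) and IER3 (-0.45 ± 0.10) fell too, while SPRY1 (0.16, adjusted p = 0.45), SPRY2 (-0.24, 0.32) and SPRED1 (-0.22, 0.11) did not pass. The medians of the list in high-glucose and glucose-deprived medium were -0.45 and -0.37.

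Among AP-1 subunits 6 of 12 fell and none rose, also without control 2. JUN stood at 66.3, 66.4 and 62.7 CPM in the controls and 41.2, 38.9 and 41.6 CPM with CGRP (-0.68 ± 0.05, adjusted p = 2.4e-07), and the small MAF proteins MAFF (-0.58 ± 0.06) and MAFK (-0.38 ± 0.05) lay below their controls in each CGRP library. The small MAF protein MAFG (-0.32 ± 0.09) lost its call without any 2-DG library except control 2. JUNB (-0.07, adjusted p = 0.57), JUND (-0.10, 0.70) and FOSL2 (0.26, 0.17) did not pass. Without the glucose-deprived CGRP library 2, 1 AP-1 gene rose.

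EGF family ligands and receptors changed in both directions. Of 10 tested genes 5 fell and 2 rose. NRG1, a ligand of ERBB3 and ERBB4, stood at 176, 186 and 168 CPM in the controls and 124, 126 and 124 CPM with CGRP (-0.50 ± 0.06, adjusted p = 3.1e-05), with every control above every CGRP library. TGFA (-0.31 ± 0.08) lost its call without CGRP 1, CGRP 2 or control 1, and EREG (-0.47 ± 0.12) without those or control 3, so that 3 fell when 1 of those 3 first libraries was left out. The receptor ERBB3 (0.28 ± 0.08) and the ligand EGF (0.64 ± 0.18) were the 2 that rose, EGF at 2.46, 1.47 and 1.98 CPM in the controls and 3.23, 3.12 and 2.93 CPM with CGRP. Neither held: EGF lost its call without any CGRP library or control 2 or control 3, ERBB3 without CGRP 2, CGRP 3, control 2 or control 3, and the count that rose was 1 without CGRP 1 and 0 without each of the other 4. EGFR (-0.09, adjusted p = 0.87) and ERBB2 (0.18, 0.070) did not pass.

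Cytokines that NF-kB is known to drive fell in part. Of 23 tested genes 6 fell and none rose (median -0.09) and 6 fell without control 2 too. IL1A, an alarmin of epithelial cells, stood at 447, 444 and 443 CPM in the controls and 266, 255 and 266 CPM with CGRP (-0.76 ± 0.04, adjusted p = 1.4e-08). LIF, of the interleukin 6 family, stood at 87.4, 80.4 and 83.8 CPM in the controls and 43.04, 41.4 and 43.4 CPM with CGRP (-0.98 ± 0.07, adjusted p = 2.3e-07), and the chemokine CX3CL1 at 130.4, 129 and 122 CPM in the controls and 88.7, 87.9 and 85.1 CPM with CGRP (-0.54 ± 0.05, adjusted p = 2.0e-06). IL1B (-0.53 ± 0.06) and CSF3 (-1.43 ± 0.23) fell with them, and in none of these 5 did a CGRP library reach a control. CXCL8 (-0.15, adjusted p = 0.63), IL6 (0.16, 0.50), TNF (-0.17, 0.061) and the feedback inhibitors NFKBIA (-0.02, 0.95) and TNFAIP3 (-0.11, 0.59) did not pass. Without the glucose-deprived CGRP library 2, 1 gene of the list rose. In the activin, TGF-beta and BMP list 4 of 11 fell, INHBE, INHBA, GDF15 and TGFB1 (-0.39 ± 0.07), and BMP2 rose (0.28 ± 0.07), though not without CGRP 1 or control 3, which left none.

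Targets of the integrated stress response were mostly lower. Of 30 tested genes 20 fell and none rose, with a median of -0.54, and 21 fell without control 2. Their factor ATF4 stood at 299, 367 and 311 CPM in the controls and 248, 234 and 237 CPM with CGRP (-0.44 ± 0.10, adjusted p = 0.0060). Serine synthesis was covered by PSAT1 at 409, 439.6 and 411 CPM in the controls and 195, 189.7 and 190.1 CPM with CGRP (-1.13 ± 0.05, adjusted p = 4.3e-09) and by PHGDH at 203, 241 and 206 CPM in the controls and 129, 121 and 125 CPM with CGRP (-0.79 ± 0.09, adjusted p = 4.0e-05). In all 3 genes the CGRP libraries lay below every control. The stress pseudokinase TRIB3 stood at 55.8, 65.3 and 56.5 CPM in the controls and 29.6, 28.9 and 27.4 CPM with CGRP (-1.05 ± 0.08, adjusted p = 4.3e-07), the stress cytokine GDF15 at 46.4, 51.1 and 48.3 CPM in the controls and 23.5, 21.98 and 22.8 CPM with CGRP (-1.09 ± 0.07, adjusted p = 3.0e-08) and the secreted glycoprotein STC2 at 107, 110.3 and 102 CPM in the controls and 56.9, 55.9 and 54.3 CPM with CGRP (-0.93 ± 0.06, adjusted p = 1.4e-07). The glutathione-degrading enzyme CHAC1 (-1.12 ± 0.14), the folate enzymes MTHFD2 (-0.54 ± 0.05) and ALDH1L2 (-1.16 ± 0.19), and the amino acid transporters SLC7A11 (-1.13 ± 0.19), SLC7A5 (-0.60 ± 0.09) and SLC3A2 (-0.62 ± 0.08) also fell. SESN2 (-0.18 ± 0.06) passed only narrowly and lost its call without any of 16 libraries.

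Both usual reporters of this response did not pass. DDIT3, the factor CHOP, stood at 11.2, 17.6 and 12.2 CPM in the controls and 11.4, 9.82 and 8.72 CPM with CGRP (-0.45 ± 0.22, adjusted p = 0.22), with overlapping groups, and it passed without the glucose-deprived CGRP library 2 (adjusted p = 0.035). ASNS, asparagine synthetase, was low at 1.29, 0.924 and 1.58 CPM in the controls and 0.591, 0.965 and 0.79 CPM with CGRP (-0.69 ± 0.30, adjusted p = 0.16), and it passed without that library as well (0.049). Without it 1 gene of the list rose. The median of the list was -0.37 in high-glucose and -0.06 in glucose-deprived medium, and 14 members had a lower effect in 2-DG than in glucose-deprived medium by the test of the difference (background 3.87% called, either direction), while none differed from high glucose (0.391%). Without control 2 and the glucose-deprived CGRP library 2, however, 11 of the 30 differed from high glucose and 22 from glucose-deprived medium, where 5.99% and 17.7% of all genes did. The controls of glucose-deprived medium already stood higher, for TRIB3 at 497 ± 2.51 CPM (SD, n = 3) against 59.2 ± 5.29 CPM in 2-DG medium.

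The synthetases that load amino acids onto tRNA, many of them known ATF4 targets, fell in 14 of 20 cases, none rose, and the median was -0.29. WARS1, for tryptophan, stood at 111, 117 and 114 CPM in the controls and 68.9, 68.6 and 66.2 CPM with CGRP (-0.75 ± 0.04, adjusted p = 1.4e-08). GARS1, for glycine, stood at 253, 278 and 257 CPM in the controls and 165, 160.4 and 165 CPM with CGRP (-0.68 ± 0.05, adjusted p = 5.5e-07), MARS1, for methionine, at 234, 242 and 232 CPM in the controls and 156, 160.2 and 158 CPM with CGRP (-0.58 ± 0.04, adjusted p = 2.3e-07), and AARS1, for alanine, at 360.5, 380.2 and 369.6 CPM in the controls and 224, 234 and 229.6 CPM with CGRP (-0.69 ± 0.06, adjusted p = 1.2e-06). In each of these 4 genes every control exceeded every CGRP library. QARS1 (0.03, adjusted p = 0.78) and HARS1 (-0.05, 0.65) did not pass. Without control 2, 15 fell and 1 rose. WARS1 was the 1 synthetase whose effect was lower than in high glucose, where it was -0.24 ± 0.04. The difference was -0.51 ± 0.06 (adjusted p = 0.0012), a call that held without any 1 library. Without control 2 and the glucose-deprived CGRP library 2, 4 synthetases differed from high glucose, against 5.99% of all genes.

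Of 24 tested genes of ER chaperones, oxidoreductases and ER-associated degradation 19 fell and none rose, the median was -0.45, and 19 fell without control 2 as well. HSPA5, the Hsp70 chaperone BiP of the ER, stood at 2201, 2437 and 2164 CPM in the controls and 1444, 1373 and 1362 CPM with CGRP (-0.70 ± 0.07, adjusted p = 9.6e-06). PDIA4, a disulfide isomerase, stood at 861, 832 and 847 CPM in the controls and 619.5, 617 and 614 CPM with CGRP (-0.46 ± 0.04, adjusted p = 4.6e-06). HYOU1, a chaperone that exchanges nucleotide on BiP, stood at 347, 311 and 343 CPM in the controls and 198, 200.3 and 199 CPM with CGRP (-0.75 ± 0.07, adjusted p = 7.3e-06), and the BiP cochaperone DNAJB11 at 127, 142 and 136 CPM in the controls and 93.9, 91.01 and 92.7 CPM with CGRP (-0.55 ± 0.06, adjusted p = 1.0e-05). In all 4 the gap between the groups was wider than the range within either. XBP1, the factor that the ER stress sensor IRE1 activates by splicing, stood at 137, 151 and 138 CPM in the controls and 96.02, 91.9 and 93.9 CPM with CGRP (-0.60 ± 0.06, adjusted p = 1.7e-05). HSP90B1 (-0.65 ± 0.10), PDIA3 (-0.49 ± 0.08), SDF2L1 (-0.83 ± 0.18), MANF (-0.80 ± 0.14), CRELD2 (-0.80 ± 0.14) and HERPUD1 (-0.32 ± 0.06) fell as well. CALR (-0.39 ± 0.11) lost its call without CGRP 2, CGRP 3 or control 2 (adjusted p = 0.13 without control 2). DNAJC3 (-0.24 ± 0.07), whose groups overlapped at control 2, lost it without any of 14 libraries. SEL1L (-0.22, adjusted p = 0.37), EDEM1 (-0.24, 0.23), DERL1 (-0.10, 0.18), DERL2 (-0.16, 0.22) and the oxidase ERO1A (0.06, 0.52) did not pass. The first 4 belong to ER-associated degradation, as does HERPUD1, which fell. Without control 2 and the glucose-deprived CGRP library 2, 22 of the 24 fell, against 16.3% of all genes.

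In the other media the same list had medians of 0.02 (high glucose) and -0.01 (glucose-deprived). The difference itself passed for 5 members against high glucose, HSPA5 (-0.82 ± 0.10, adjusted p = 0.0020), HYOU1 (-0.62 ± 0.10, 0.020), DNAJB11 (-0.54 ± 0.08, 0.0073), DNAJB9 (-0.48 ± 0.09, 0.026) and PDIA4 (-0.43 ± 0.06, 0.0061). HSPA5, DNAJB11 and PDIA4 kept that call without any 1 of the 18 libraries, HYOU1 lost it in 11 of those fits and DNAJB9 in 9. Against glucose-deprived medium the difference passed for 15. Without control 2 and the glucose-deprived CGRP library 2 these numbers were 24 and 22. Over all genes 0.391% and 3.87% differed in the fit reported, and 5.99% and 17.7% without these 2 libraries. The list added up to between 13839 and 15156 CPM in the 2-DG controls, to between 10172 and 10562 CPM with CGRP, and to between 8049 and 8053 CPM in the high-glucose controls. HSPA5 alone stood at 923 ± 4.11 CPM in the high-glucose controls, 2267 ± 148 CPM in the 2-DG controls and 20596 ± 227 CPM in the glucose-deprived controls (SD, n = 3 each). With CGRP, the 2-DG libraries lay between the high-glucose and the 2-DG controls, and no fold between media was tested here.

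**Figure D4:**
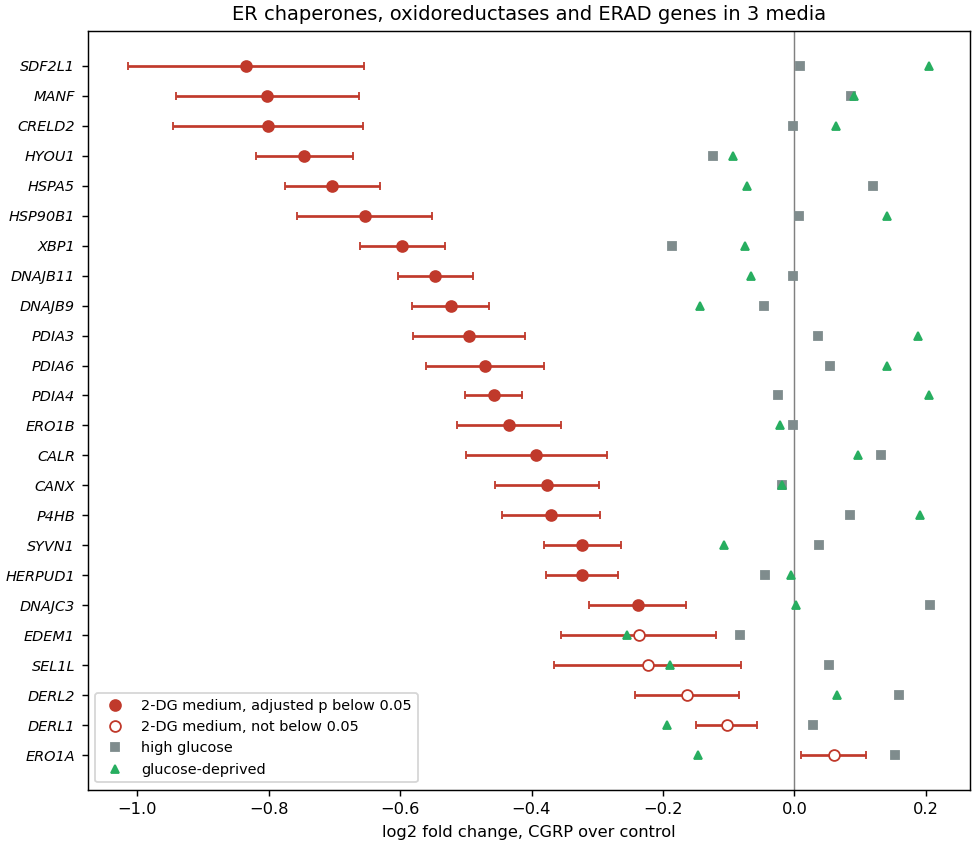
Log2 fold change of CGRP over control (points, ± SE) for the 24 tested genes of the ER list in 2-DG medium, filled where the adjusted p is below 0.05, with the values in high-glucose (squares) and glucose-deprived medium (triangles). In 2-DG medium the 19 filled points lie below 0, HSPA5 at -0.70, while its values in the other media are 0.12 and -0.07.

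Promoter sequences of these genes are shown because the members fell together. The ER stress response element, searched as CCAAT and CCACG with 9 bases of any kind between them, on both strands, and chosen after the expression values were seen, was found between 250 bases before and 50 after the start in 7 of the 22 ER list genes with a RefSeq promoter (31.8%): CALR, CANX, CRELD2, ERO1B, HSP90B1, HSPA5 and XBP1. All 7 fell, CALR within the limits given above, where 19 of all 24 tested list members did. Over the 12037 tested genes matched by symbol it was found in 14 (0.116%), over all 27305 promoters of the table in 22 (0.0806%), in 8 of the 937 promoters of genes that fell (0.854%) and in 0 of 674 of genes that rose. Those 8 are the 7 ER list genes just named and SERP1. The share among genes that fell therefore repeats the count in the list and adds no separate support. Below, capitals mark the match, or its reverse complement where the run begins with CGTGG, and each stretch lies before the start and is written 5′ to 3′ on the strand of the gene (RefSeq, GRCh38.p14). HSPA5 is chr9:125241371-125241500 on the minus strand, with the first base of the match 66 bases before the start. The other distances are also those of the first base. HSP90B1 is chr12:103930206-103930359 on the plus strand with matches at 194 and 89 bases. XBP1 is chr22:28800583-28800712 on the minus strand at 52 bases, and CRELD2 is chr22:49918463-49918592 on the plus strand at 80 bases.
HSPA5: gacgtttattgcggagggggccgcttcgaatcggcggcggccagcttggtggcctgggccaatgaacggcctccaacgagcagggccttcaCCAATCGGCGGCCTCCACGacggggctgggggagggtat
HSP90B1: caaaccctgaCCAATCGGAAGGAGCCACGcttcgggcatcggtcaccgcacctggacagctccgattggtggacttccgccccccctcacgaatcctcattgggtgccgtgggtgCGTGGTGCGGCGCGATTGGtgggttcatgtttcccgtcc
XBP1: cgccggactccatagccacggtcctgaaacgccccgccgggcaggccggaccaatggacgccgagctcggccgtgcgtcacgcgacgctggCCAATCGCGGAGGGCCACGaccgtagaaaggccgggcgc
CRELD2: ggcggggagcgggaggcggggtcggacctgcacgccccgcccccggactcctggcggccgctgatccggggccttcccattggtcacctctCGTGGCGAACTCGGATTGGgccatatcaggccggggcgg

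The composite element of C/EBP and ATF factors, searched as TGATGNAAN on both strands, was found in 4 of the 24 promoters matched to the ATF4 list (16.7%), those of ASNS, CHAC1, SLC3A2 and SLC7A1, against 1.76% of the tested genes and 3.67% of all promoters. Of these, ASNS (-0.69, adjusted p = 0.16) and SLC7A1 (-0.39, 0.10) did not pass edgeR's test. Among promoters of genes that fell 3.09% held the element, and among those of genes that rose 2.67%. CHAC1 fell from 4.80, 4.21 and 4.22 to 2.22, 1.61 and 2.27 CPM (-1.12 ± 0.14). It is shown from chr15:40953221-40953289 on the plus strand. The reverse complement of the match is in capitals, with its first base 210 bases before the start.
CHAC1: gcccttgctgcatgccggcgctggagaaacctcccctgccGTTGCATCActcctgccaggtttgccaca
The full cyclic AMP response element TGACGTCA, a palindrome that both strands share, was found in 37 of the 937 promoters of genes that fell (3.95%) and in 9 of the 674 of genes that rose (1.34%), against 3.17% of tested genes and 1.98% of all promoters. Such matches describe the letters of the window and nothing of what binds there.

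Enzymes of the hexosamine pathway and N-glycosylation, the process that 2-DG disturbs, fell in 16 of 29 cases and rose in 1, with a median of -0.21 against 0.02 in high glucose and -0.06 in glucose-deprived medium. DPAGT1, which starts the lipid-linked sugar chain, stood at 38.98, 36.3 and 39.6 CPM in the controls and 27.4, 29 and 27.5 CPM with CGRP (-0.45 ± 0.05, adjusted p = 4.1e-05). STT3A, a catalytic subunit of the oligosaccharyltransferase, stood at 209.6, 219 and 204 CPM in the controls and 153, 156 and 158 CPM with CGRP (-0.44 ± 0.05, adjusted p = 2.0e-05). GNPNAT1, which acetylates glucosamine phosphate, stood at 129, 119 and 124 CPM in the controls and 99.8, 105 and 99.6 CPM with CGRP (-0.29 ± 0.04, adjusted p = 3.1e-04). Controls lay above CGRP libraries throughout. The transferase subunit RPN1 (-0.36 ± 0.06) and the glucosidase MOGS (-0.28 ± 0.05) fell too, while MPI, which links fructose and mannose phosphates, was the 1 that rose (0.23 ± 0.06), not without control 3. Without control 2, 13 fell and 1 rose, and without CGRP 3 only 10 fell. STT3A (-0.37 ± 0.07, adjusted p = 0.032) and MOGS (-0.34 ± 0.06, 0.033) had a lower effect than in high glucose, a call lost in 13 and 15 of the 18 fits that leave out 1 library, and 7 members had a lower effect than in glucose-deprived medium. Without control 2 and the glucose-deprived CGRP library 2, 18 of the 29 differed from high glucose, against 5.99% of all genes.

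Of 22 tested genes of glucose uptake, glycolysis and lactate export 8 rose and 2 fell, with a median of 0.14. PGK1, phosphoglycerate kinase, stood at 928, 1041 and 909 CPM in the controls and 1272, 1239 and 1209 CPM with CGRP (0.37 ± 0.07, adjusted p = 0.0019), PGAM1, the next enzyme, at 434, 434 and 415 CPM in the controls and 608, 559.7 and 592 CPM with CGRP (0.46 ± 0.08, adjusted p = 0.0013), and the aldolase ALDOC at 92.4, 108 and 89.9 CPM in the controls and 149.5, 138 and 134 CPM with CGRP (0.54 ± 0.07, adjusted p = 1.4e-04). All of their CGRP values exceeded all controls. ENO2 (0.41 ± 0.07) rose as well and SLC16A1, the lactate transporter MCT1, fell (-0.30 ± 0.04). HK1 (0.19 ± 0.05), GPI (0.23 ± 0.07), LDHA (0.32 ± 0.08) and PFKFB4 (0.36 ± 0.09) also rose and PFKM fell (-0.17 ± 0.04), but these calls depended on single libraries. All 5 were lost without CGRP 1, and all but PFKM without control 1 or control 3, HK1 also without CGRP 2 or CGRP 3, GPI also without CGRP 2 or any 1 glucose-deprived control, and PFKFB4 also without CGRP 3. Thus 4 rose without CGRP 1, control 1 or control 3, and 1 fell without CGRP 1. Without control 2, 10 rose and 2 fell. The glucose transporter SLC2A1 stood at 353, 341 and 333 CPM in the controls and 372, 374 and 349 CPM with CGRP (0.09 ± 0.08, adjusted p = 0.51) and hexokinase HK2, which phosphorylates 2-DG, at 146, 120.2 and 140.1 CPM in the controls and 135, 154 and 134 CPM with CGRP (0.06 ± 0.15, adjusted p = 0.87), and neither passed. None of the list differed from high glucose in its effect. Without control 2 and the glucose-deprived CGRP library 2, 3 did, against 5.99% of all genes.

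Hypoxia-responsive genes rose in 9 of 17 cases and fell in 3, with a median of 0.35 against 0.31 in high glucose and -0.19 in glucose-deprived medium. BNIP3L, a mitophagy receptor, stood at 165, 165 and 159.8 CPM in the controls and 234, 236 and 231 CPM with CGRP (0.51 ± 0.05, adjusted p = 4.7e-06), and STC1, a secreted glycoprotein, at 19.03, 17.1 and 18.5 CPM in the controls and 33.6, 33.1 and 33.3 CPM with CGRP (0.87 ± 0.11, adjusted p = 8.6e-05). Carbonic anhydrase CA9 (0.52 ± 0.10), the oxygen sensor EGLN3 (0.38 ± 0.08) and the demethylase KDM3A (0.41 ± 0.09) rose too. VEGFA, the angiogenic factor, went against them and fell from 441, 364 and 436 to 273, 263 and 273 CPM (-0.62 ± 0.10, adjusted p = 4.5e-04). ANGPTL4, given above, is in this list too and had its largest fall (-1.44 ± 0.17). BNIP3 (0.46 ± 0.12), EGLN1 (0.58 ± 0.15) and PDK1 (0.25 ± 0.07) rose but lost their calls without some of the libraries: all 3 without CGRP 2, BNIP3 also without CGRP 1, control 1 or control 3, the other two without CGRP 3 or control 2, and PDK1 also without control 3. Between 6 and 8 rose over the fits that leave out 1 of the 2-DG libraries, and 8 without control 2. None of the list differed from high glucose. Without control 2 and the glucose-deprived CGRP library 2, 4 did, against 5.99% of all genes. In the fit reported, 9 had a higher effect than in glucose-deprived medium, where 3.87% of all genes differed in either direction. STC1 had -1.22 ± 0.20 in glucose-deprived medium (difference 2.10 ± 0.23, adjusted p = 8.7e-05). In the MondoA list, whose factor senses glucose phosphates, TXNIP, a brake on glucose uptake, rose from 735, 663 and 716 to 896, 867 and 892 CPM (0.33 ± 0.06, adjusted p = 0.0015) and ARRDC3 rose (0.30 ± 0.07), the latter not without CGRP 1 or control 2, which left 1 of 6.

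Of 23 tested cholesterol synthesis genes 14 rose and none fell, with a median of 0.26 against 0.17 and 0.15 in the other media. MSMO1, a sterol oxidase, stood at 224, 236 and 225 CPM in the controls and 305, 306 and 307 CPM with CGRP (0.42 ± 0.05, adjusted p = 2.3e-05), INSIG1, the sterol-sensing anchor of SREBP processing, at 144.8, 149 and 144 CPM in the controls and 209.7, 213 and 202 CPM with CGRP (0.51 ± 0.06, adjusted p = 2.3e-05), and mevalonate kinase MVK at 39.1, 44.5 and 39.7 CPM in the controls and 60.7, 58.3 and 57.2 CPM with CGRP (0.52 ± 0.06, adjusted p = 4.5e-05). The groups were apart in each of these, by 0.42 to 0.52 in log2 fold change. The cyclase LSS (0.54 ± 0.07), HMGCS1 (0.36 ± 0.06) and IDI1 (0.45 ± 0.08) rose with them, while CYP51A1 (-0.02, adjusted p = 0.95) and SREBF2 (0.13, 0.46) did not pass. Without control 2, 15 rose, and without CGRP 2 or CGRP 3 of the 2-DG groups 9 rose. None of the list differed from high glucose. Without control 2 and the glucose-deprived CGRP library 2, 8 of the 23 did, against 5.99% of all genes.

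Of 20 tested G2/M genes 11 rose and none fell, with a median of 0.28 against 0.00 in high glucose and -0.17 in glucose-deprived medium. KIF20A, a kinesin of cytokinesis, stood at 94.2, 93.97 and 96.8 CPM in the controls and 138, 142 and 137 CPM with CGRP (0.55 ± 0.05, adjusted p = 3.9e-06). HMMR, a spindle protein, stood at 100.04, 99.1 and 101 CPM in the controls and 124, 128 and 134 CPM with CGRP (0.36 ± 0.05, adjusted p = 8.2e-05), TPX2, which activates Aurora A, at 254, 246 and 255 CPM in the controls and 303, 314 and 314 CPM with CGRP (0.30 ± 0.04, adjusted p = 2.0e-04), and the motor KIF11 at 152, 135 and 152 CPM in the controls and 175, 186 and 175 CPM with CGRP (0.29 ± 0.06, adjusted p = 0.0023). No control reached a CGRP library in these genes. TOP2A (0.42 ± 0.08) and BUB1 (0.26 ± 0.06) rose as well, and MKI67, the proliferation marker, stood at 500.4, 322 and 471 CPM in the controls and 509.5, 623 and 559.5 CPM with CGRP (0.39 ± 0.23, adjusted p = 0.32) and did not pass, though it did under 4 of 29 alternatives, among them without the glucose-deprived CGRP library 2 (adjusted p = 0.029). Without control 2, 12 rose, 7 rose without control 3, and 17 rose without the glucose-deprived CGRP library 2. The effect was higher than in high glucose for KIF20A (0.50 ± 0.07, adjusted p = 0.0061), which held without any 1 library, and for HMMR (0.35 ± 0.07, 0.032) and TPX2 (0.30 ± 0.06, 0.042), each lost in 15 of the 18 fits that leave out 1 library. Without control 2 and the glucose-deprived CGRP library 2 the difference passed for 18 of the 20, against 5.99% of all genes. Summed over the list, the controls held 3436 to 3727 CPM, the CGRP libraries 4367 to 4620 CPM and the high-glucose controls 4541 to 4761 CPM. As with the ER list, the CGRP libraries were nearer to the high-glucose controls than the 2-DG controls were.

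Of 21 tested genes of DNA replication and G1/S 2 fell and none rose, with a median of -0.11, and the difference between the G2/M and G1/S lists was not tested. The licensing factor CDC6 stood at 125, 129 and 127 CPM in the controls and 98.4, 100.1 and 105 CPM with CGRP (-0.33 ± 0.05, adjusted p = 1.7e-04) in 2 clearly separated groups, while E2F1 (-0.25 ± 0.07) lost its call without any of 12 libraries, control 2 among them, which left 1. Without the glucose-deprived CGRP library 2, 6 fell. MCM2 (-0.10, adjusted p = 0.22) and PCNA (0.04, 0.87) did not pass. Of 12 D-type cyclins, cyclins G and CDK inhibitors 5 rose and 2 fell, and 6 and 2 without control 2. CCND1, cyclin D1, stood at 379, 361 and 359 CPM in the controls and 207, 217 and 219 CPM with CGRP (-0.78 ± 0.06, adjusted p = 1.1e-06), and CCND2 fell too (-0.54 ± 0.07). CCNG2, an atypical cyclin of cells that leave the cycle, stood at 25.3, 23.8 and 24.1 CPM in the controls and 40.2, 43.3 and 38.5 CPM with CGRP (0.74 ± 0.07, adjusted p = 3.9e-06). The inhibitors CDKN2D (0.59 ± 0.09), CDKN1B (0.26 ± 0.05), CDKN1A (0.23 ± 0.04) and CDKN1C (0.95 ± 0.19) rose. Without the glucose-deprived CGRP library 2, 8 of this list rose.

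LAMB3, the beta chain of a laminin that anchors epithelium to its matrix, was among the genes whose difference between media held without any 1 library. It stood at 1544, 1555 and 1474 CPM in the controls and 833, 821 and 788 CPM with CGRP (-0.91 ± 0.05, adjusted p = 1.7e-08), against -0.18 ± 0.05 in high glucose and -0.09 ± 0.05 in glucose-deprived medium, and the difference from high glucose was -0.73 ± 0.07 (adjusted p = 2.7e-04). LAMA3, an alpha chain of the same laminin, had 0.15 ± 0.13 in 2-DG medium and did not pass (adjusted p = 0.55). Of 23 genes of laminins, hemidesmosomes, proteases and partial epithelial-mesenchymal transition 5 fell and 4 rose, 5 each without control 2. PLAU (-0.31 ± 0.05), its receptor PLAUR (-0.54 ± 0.08) and N-cadherin CDH2 (-0.35 ± 0.06) fell. The collagenase MMP1 (0.70 ± 0.13) and the plasminogen activator PLAT (0.62 ± 0.15) rose, and so did PDPN (0.16 ± 0.04) and, at 0.492, 0.616 and 0.33 CPM in the controls and 0.799, 1.03 and 3.78 CPM with CGRP, VIM, both lost without CGRP 3, control 1 or control 3 and PDPN also without CGRP 1. Then 2 rose without CGRP 3, control 1 or control 3, and 8 rose and 8 fell without the glucose-deprived CGRP library 2.

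Interferon-stimulated genes rose in 5 of 21 cases with no falls, and in 5 without control 2. OAS1, an RNA sensor, stood at 53.9, 56.4 and 51.2 CPM in the controls and 75.8, 70.6 and 70.3 CPM with CGRP (0.42 ± 0.07, adjusted p = 4.2e-04), and IFIT1 (0.40 ± 0.08), MX2 (0.35 ± 0.07) and IFI44L (0.39 ± 0.08) rose with it, all with separate groups. MX1 (0.24 ± 0.06) lost its call without CGRP 1, CGRP 2 or control 3. ISG15 (-0.18, adjusted p = 0.53) did not pass. NRF2 targets gave 3 rises and 2 falls of 21, of which AKR1B10 and the fall of the cystine carrier SLC7A11 held without any 1 library. AKR1C3 (0.47 ± 0.13), which is close in sequence to other AKR1C genes, GPX2 (0.38 ± 0.09) and GCLC (-0.26 ± 0.08) lost theirs. AKR1C3 did so without CGRP 1, CGRP 3, control 1 or control 3, GPX2 without CGRP 1, CGRP 2 or control 1, and GCLC without any 2-DG library except control 2. Without CGRP 1 or control 1, 1 rose. Without each 2-DG library except control 2, 1 fell, and 6 fell without the glucose-deprived CGRP library 2. NQO1 (-0.11, adjusted p = 0.50) and HMOX1 (0.12, 0.48), the usual reporters of NRF2, did not pass.

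Survival genes of the BCL2 family and death receptors gave 3 falls and 1 rise of 14, and 4 and 1 without control 2. BMF, a killer protein that binds BCL2 proteins, rose from 13.8, 11.2 and 13.1 to 23.6, 22.6 and 22.2 CPM (0.84 ± 0.09, adjusted p = 2.0e-05). The survival protein BCL2L1 (-0.26 ± 0.04), the killer PMAIP1 (-0.28 ± 0.05) and the death receptor TNFRSF10A (-0.46 ± 0.08) fell, with 6 falls without the glucose-deprived CGRP library 2. Heat shock proteins outside the ER fell in 4 of 12 cases, with a median of -0.19, and in 4 with 1 rise without control 2, and 7 fell and 2 rose without the glucose-deprived CGRP library 2. The cytosolic chaperone HSPA8 stood at 1545, 1847 and 1578 CPM in the controls and 1339, 1277 and 1305 CPM with CGRP (-0.34 ± 0.07, adjusted p = 0.0034), and the mitochondrial HSPA9 (-0.28 ± 0.05) and HSPA1A (-0.40 ± 0.09), a near copy of HSPA1B (-0.21, adjusted p = 0.13), fell too. HSPH1 (-0.18 ± 0.05) did not hold without CGRP 1, CGRP 2, control 1 or control 3.

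Genes of autophagy, nutrient sensing and Rap1 gave few calls that held without any 1 library. SQSTM1, the autophagy receptor p62, fell from 789, 903 and 797 to 571, 546 and 573 CPM (-0.56 ± 0.07, adjusted p = 4.9e-05), and the autophagy kinase ULK1 rose (0.30 ± 0.05). The 32 autophagy genes gave 1 rise and 2 falls, where 5.31% of all genes rose and 6.89% fell. The second fall (WIPI1, -0.23 ± 0.07) did not hold without CGRP 1, CGRP 3, control 1 or control 2. Without the glucose-deprived CGRP library 2, 3 rose. Of 29 genes of mTORC1, nutrient sensors and AMPK 2 rose and 3 fell, and CASTOR2 (0.40 ± 0.09) was the 1 call that no library took away. PRKAG2 (-0.25 ± 0.07) was lost without CGRP 2, CGRP 3, control 2 or control 3, PRKAB1 (-0.21 ± 0.06) without CGRP 1, CGRP 2, control 2 or control 3, and SESN3 (0.65 ± 0.18) without CGRP 2, CGRP 3 or control 2. The counts were then 1 and 1 without control 2, and none fell without CGRP 2 or control 3. Of 18 Rap1 GTPases and regulators 2 rose, the GTPase activator SIPA1 (0.28 ± 0.05) and the exchange factor RASGRP2 (0.72 ± 0.13), and 2 fell, RAP1GAP (-0.21 ± 0.07) and RAPGEF3 (-0.60 ± 0.18), lost without any of 15 and 11 libraries and both without control 2. RAP1A (0.13, adjusted p = 0.36) and RAP1B (0.07, 0.41) did not pass.

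Of 20 keratin, cornified envelope and desmosome genes 2 fell, the close relatives SPRR1A and SPRR1B (-1.10 ± 0.19), and 2 rose at low level, KRT19 (0.80 ± 0.22) and TGM1 (0.51 ± 0.15). KRT19 was lost without CGRP 1, CGRP 2, control 1 or control 2 and TGM1 without any 2-DG library except CGRP 2. Thus 0 rose without CGRP 1 or control 1, and 1 without CGRP 2, CGRP 3 or control 3. Without control 2 both were lost, and 1 other gene of the list rose. KRT5 (0.03, adjusted p = 0.85) and KRT14 (0.00, 0.99) did not pass. Of 23 lysosomal genes 2 rose and 1 fell: cathepsin CTSB stood at 885, 992 and 905 CPM in the controls and 1250.00, 1147 and 1191 CPM with CGRP (0.37 ± 0.07, adjusted p = 0.0016), the channel MCOLN1 fell (-0.27 ± 0.06), and NEU1 (0.28 ± 0.07) was lost without CGRP 1, CGRP 3, control 1 or control 3, leaving 1, with 3 falls without the glucose-deprived CGRP library 2. Of 10 snoRNA host genes 4 fell, with a median of -0.49, but SNHG15 (-0.63 ± 0.13) alone held without control 2 or any CGRP library. GAS5 (-0.41, adjusted p = 0.17), SNHG1 (-0.28, 0.18) and SNHG12 (-0.34, 0.19) had those values without control 2, 2 fell without any 1 of the glucose-deprived controls, and all 10 fell without the glucose-deprived CGRP library 2. None of 7 metallothioneins and zinc regulators passed. Of 13 mitochondrially encoded genes MT-ATP8 fell (-0.49 ± 0.13), not without CGRP 3, control 2 or control 3.

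How far the response belonged to 2-DG medium was tested by the difference of CGRP effects between media, each with its own controls. Of the 2216 genes called in 2-DG medium 1954 (88.2%) had the same sign in high glucose and 574 were called there in the same direction, where 787 of the 18159 genes were called (4.33%). In glucose-deprived medium 1705 (76.9%) had the same sign and 733 were called in the same direction, where 2354 of the 18159 genes were called. Over all genes, 64.2% had the same sign in high glucose and 57.2% in glucose-deprived medium. The median of the genes that rose was 0.45 in 2-DG medium, where they were chosen, and 0.20 in each of the others, and that of the genes that fell was -0.36 against -0.16 and -0.15. The difference passed for 71 genes against high glucose (0.391%), 22 higher and 49 lower, and for 702 against glucose-deprived medium (3.87%), 307 higher and 395 lower. These counts rest on single libraries. Against high glucose, between 13 and 24 were called without any 1 of the high-glucose libraries or of the 2-DG libraries other than control 2, and 53 without control 2. Without 1 of the glucose-deprived controls 33 to 42 were called, without the glucose-deprived CGRP library 2 336, and without that library and control 2 1088. With scaling to total counts 44.4% of the calls were higher, against 30.99% here. Against glucose-deprived medium 435 were called without CGRP 2 of the 2-DG groups and 442 without the glucose-deprived control 1.

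AGR2, a disulfide isomerase of the ER in secretory epithelium, had the largest difference from high glucose among the genes named. It stood at 39.8, 54.9 and 40.05 CPM in the controls and 23.3, 20.5 and 19.8 CPM with CGRP in 2-DG medium (-1.08 ± 0.15, adjusted p = 2.1e-04), but rose in high glucose (0.74 ± 0.17, adjusted p = 0.021) and in glucose-deprived medium (0.79 ± 0.15, adjusted p = 0.0021). The differences were -1.82 ± 0.23 (adjusted p = 0.0023) and -1.87 ± 0.21 (adjusted p = 1.3e-04), and both kept their sign and call without control 2, which was the highest of the controls. Besides AGR2, 3 of the 2216 genes were called in the opposite direction in high glucose, TRAM1, SERPINH1 and RSRC2, named after their values were seen. In glucose-deprived medium 77 of the 2216, AGR2 among them, were called in the opposite direction, 48 that rose and 29 that fell in 2-DG medium. NUCB2, a calcium-binding protein of the secretory pathway, stood at 115, 128 and 117 CPM in the controls and 77.95, 75.7 and 78.8 CPM with CGRP (-0.63 ± 0.08), with a difference from high glucose of -0.71 ± 0.11 (adjusted p = 0.015) that was lost without CGRP 2, the high-glucose CGRP library 3 or the high-glucose control 1 or control 2. CTHRC1, a secreted collagen-repeat protein, had -0.84 ± 0.11 and a difference of -0.81 ± 0.16 (adjusted p = 0.041), lost in 14 of the 18 fits. Upward, CCNG2 had a difference of 0.56 ± 0.10 (adjusted p = 0.021; lost without CGRP 1, CGRP 2 or control 3 of the 2-DG groups and 4 high-glucose libraries), and NPM1P27, a pseudogene whose reads may belong to NPM1 or its other copies, 0.98 ± 0.17 (0.020; lost in 9 of the 18 fits). HCG27 (0.85 ± 0.17, 0.047), the kinase TEC (0.78 ± 0.15, 0.042) and the T cell receptor segment TRAV8-1 (0.61 ± 0.13, 0.049) completed the 5 and were lost in 15 or 16 of the fits.

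**Figure D5:**
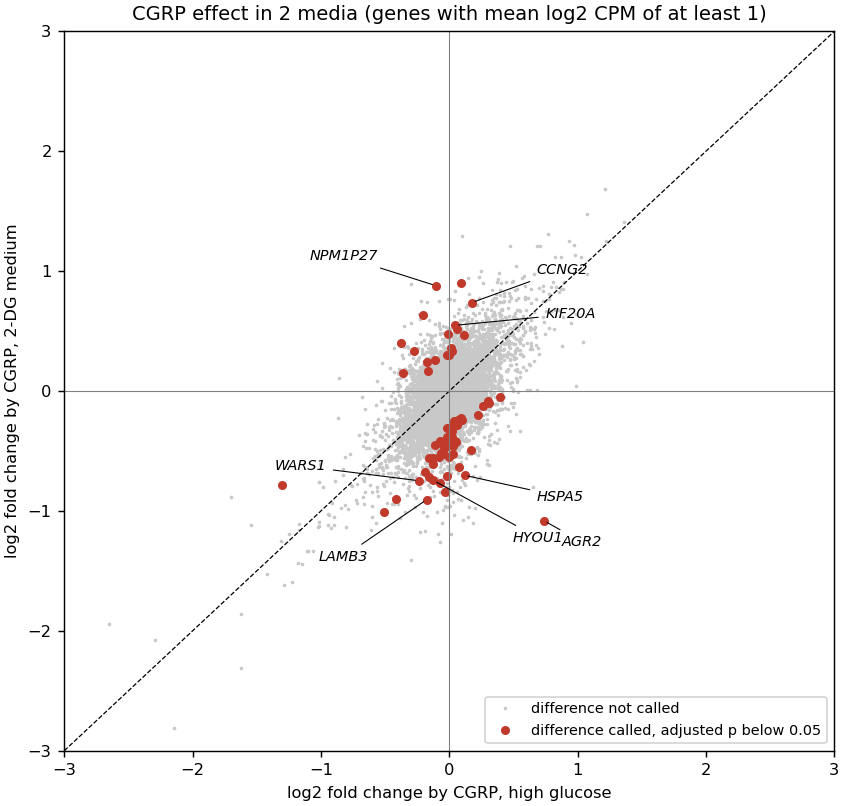
Log2 fold change of CGRP over control in 2-DG medium (vertical) against high glucose (horizontal) for genes with a mean log2 CPM of at least 1, both axes from -3 to 3, dashed line at equal effects. Red points are genes whose difference passed; AGR2 lies at -1.08 and 0.74, LAMB3 at -0.91 and -0.18, and HSPA5 at -0.70 and 0.12.

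Against glucose-deprived medium the largest differences were in genes of low level. EDN2 rose in 2-DG medium and fell in glucose-deprived medium (-2.60 ± 0.32, adjusted p = 6.5e-05), a difference of 3.90 ± 0.43 (adjusted p = 9.8e-05). SLC28A3, a nucleoside carrier, stood at 3.57, 1.75 and 2.90 CPM in the controls and 4.97, 5.44 and 4.93 CPM with CGRP (0.89 ± 0.20) and had a difference of 2.33 ± 0.40 (adjusted p = 0.0033). CLCA2 (2.03 ± 0.50) and SERPINB3 (1.62 ± 0.35) also had higher effects, CLCA2 not in 6 of the alternatives tried and SERPINB3 not without the glucose-deprived control 1 or control 3. INHBE had the largest difference downward (-3.03 ± 0.24, adjusted p = 4.9e-06), and its CGRP effect was 0.22 ± 0.10 in glucose-deprived medium, where its controls stood at 26.5 ± 2.01 CPM (SD, n = 3). FLRT1 (-1.73 ± 0.30, adjusted p = 0.0033), the membrane protein TMEM52 (-1.55 ± 0.25, 0.0025) and RAB7B (-2.81 ± 0.74, 0.045) followed. RAB7B itself had 0.03 ± 0.17 in 2-DG medium (adjusted p = 0.94), so that its difference came from the other medium, and it was lost in 20 of the alternatives.

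Transcripts of cytotoxic lymphocytes had more counts in the 3 CGRP libraries of 2-DG medium than in the other libraries. A list of 21 such genes, written after their values were seen, added up to 246 to 346 counts in these libraries and to 22 to 58 counts in each of the 15 others. PTPRC, the leukocyte antigen CD45, had 15, 18 and 25 counts with CGRP and 0, 0 and 1 in the controls, and GZMA, granzyme A, had 31, 37 and 47 against 0, 1 and 0. NKG7 had 22, 16 and 24 counts with CGRP and GNLY, granulysin, 26, 28 and 40, with 0 in each control. Of the 964 genes that rose, 8 had at most 3 counts over the 3 controls, and these had passed the count filter through the CGRP group where they were high. The list was written with them in view and contains all 8. They are also 8 of the 115 with a rise of at least 2-fold, of which 17 reach a mean log2 CPM of 1. The T cell segment TRAV8-1 above stood at 23.9, 21.8 and 22.4 CPM in the controls as well. Where these reads came from was not tested.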

How the data were processed

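RNA was extracted with Trizol and libraries were made by standard Illumina protocols, per the labels' protocols. The authors deposited a table of raw counts per gene for 18 libraries, with 60683 Ensembl genes, of which 60370 were matched to symbols. HISAT2 2.0.4 and the builds hg19 and GRCh38 are named, per the submitters' processing notes. Which counter and annotation were used, and whether strand was, is not given in the sources used here, so near copies of a gene and overlapping or antisense genes cannot be told apart, and no coordinates of the counted genes are given. Depth was 28038260 to 32661768 counts a library.

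Counts were filtered with filterByExpr (minimum count 10, minimum total 15), which left 18159 genes, scaled by TMM and fitted with edgeR 4.0.16 in R 4.3.3 (glmQLFit, robust, and glmQLFTest) over all 18 libraries with 1 coefficient per group, 12 residual degrees of freedom and a biological coefficient of variation of 9.44%. P-values were adjusted by the Benjamini-Hochberg method over all genes tested, with a threshold of 0.05. The contrasts were CGRP minus control in 2-DG medium, and that effect minus the effect in each other medium. The code was tested on simulated data with the same spread for every gene and no library set apart. That test therefore says nothing of how libraries that stand apart affect the calls. With 3 libraries against 3, an exact permutation test of a single gene cannot go below p = 0.1, and none is given. The labels call the replicates independent but do not name cultures, so p-values measure the spread between these libraries.

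The comparison, its gene lists and the genes were chosen with earlier results of these data known. Genes named are the 10 largest rises and falls among called genes with separate groups, an official symbol and a mean log2 CPM that reaches 1, up to 4 members of each list with the smallest adjusted p, 11 genes named in any case (CALCRL, RAMP1, HSPA5, DDIT3, ASNS, TXNIP, SLC2A1, HK2, IL1A, SQSTM1, MKI67), and the 5 largest differences between media in each direction. Others, such as further list members, were named after their values were seen, and the values of some genes are not reported here. Alternatives were RLE and total-count scaling, DESeq2 1.42.0, limma 3.58.1 (voom with quality weights), other filters, fewer groups, a replicate block and leaving out libraries. Leaving out the high-glucose and glucose-deprived libraries, an offset for transcript length and a fit of the 5 other 2-DG libraries were chosen after seeing the data. Promoters were read from a RefSeq table (GRCh38.p14), which held 12037 of 18145 tested symbols. No set of genes was tested as a set.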

Additional observations from a re-analysis of the deposited data

Results flagged for a closer look

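These results stand out because the effect of CGRP differed between media by a test of the difference itself (edgeR's quasi-likelihood test, adjusted over 18159 genes); values are differences of log2 fold changes. Against high glucose the effect in 2-DG medium was lower for AGR2 (-1.82), HSPA5 (-0.82), CTHRC1 (-0.81), LAMB3 (-0.73), NUCB2 (-0.71), HYOU1 (-0.62), DNAJB11 (-0.54), WARS1 (-0.51), PDIA4 (-0.43) and STT3A (-0.37). It was higher for the mitotic genes TPX2 (0.30), HMMR (0.35) and KIF20A (0.50), and for CCNG2 (0.56), TRAV8-1 (0.61), TEC (0.78), HCG27 (0.85) and NPM1P27 (0.98). Among genes named after their values were seen, it was lower for TRAM1 (-0.66), SEC61A1 (-0.49), DNAJB9 (-0.48), SSR1 (-0.46), PTHLH (-0.40) and MOGS (-0.34), and higher for OLR1 (0.36) and CYP1A1 (0.52). Many of these calls rest on single libraries. As given in the Results, CTHRC1, NUCB2, HYOU1, STT3A, DNAJB9, MOGS, TPX2, HMMR, CCNG2, TRAV8-1, TEC, HCG27 and NPM1P27 lost theirs in some of the fits that leave out a library.

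Against glucose-deprived medium the effect was lower for INHBE (-3.03), RAB7B (-2.81), AGR2 (-1.87), FLRT1 (-1.73), TMEM52 (-1.55), SPRR1A (-1.33), SLC43A1 (-1.26), FOSL1 (-1.14), CTHRC1 (-0.94), LAMB3 (-0.82), NUCB2 (-0.82), CSF2 (-0.80), SQSTM1 (-0.73), HBEGF (-0.73), HSPA5 (-0.63) and TRAV8-1 (-0.61). It was higher for TEC (0.66), TXNIP (0.66), NPM1P27 (0.85), ANGPTL4 (1.12), CCNG2 (1.21), SERPINB3 (1.62), CLCA2 (2.03), STC1 (2.10), SLC28A3 (2.33) and EDN2 (3.90). SPRR1A lost this call without CGRP 1 or CGRP 2 of the 2-DG groups or the glucose-deprived control 1, and ANGPTL4 under 15 of 29 alternatives. RAB7B, CLCA2 and SERPINB3 also lost it under some alternatives, as given in the Results.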

How the results depend on the processing

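The call of 2216 genes in 2-DG medium became 5581 with limma-voom and quality weights, 1156 with the 2-DG libraries alone (4 residual degrees of freedom in place of 12), 5233 without both libraries that stand apart, 4094 with the 5 other 2-DG libraries, and 1463 to 3856 without 1 library; the length offset gave 3088, DESeq2 2467, no filter 1562 and RLE scaling 2155. The difference from high glucose (71) became 228 with DESeq2, 1223 with voom, 30 with no filter, 148 with the groups compared alone, 1088 without both libraries, 185 with the length offset, and 13 to 336 without 1 library. The difference from glucose-deprived medium (702) became 1081, 3261, 430, 209, 3220 and 1180 in the same order, and 435 to 1005 without 1 library. The cause of these moves was not tested. With a replicate block the counts were 2277, 68 and 714. Deviations of same-numbered 2-DG libraries from their group means had correlations of -0.48, -0.41 and 0.12. Control 2, which stood apart, enters the mean of the controls, and its own correlations with CGRP 1 and CGRP 2 were 0.52 and -0.41. Whether the numbers pair the samples can therefore not be told from these values. Of 141 named genes none that was called, as reported or under the alternative, changed sign under 29 alternatives; RAMP1, HK2 and RAB7B, not called, did, and between 118 (groups compared alone) and 140 kept their side of the threshold. RAP1GAP changed it under 22 alternatives, RAPGEF3 under 19, SNHG12 under 17 and E2F1 under 16. Depth limits genes below about 1 CPM, such as VIM and ASNS, and also INHBE and SLC43A1 in the 2-DG CGRP libraries.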

Other observations

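Of 19 genes of protein import into the ER, a list written after their values were seen, so that its counts are a description, 11 fell and none rose (6.89% of all genes fell), 10 fell without control 2, and the median was -0.41 against 0.03 in high glucose and 0.05 in glucose-deprived medium. SEC61A1, the pore of the translocon, stood at 452, 447 and 452 CPM in the controls and 330.2, 331 and 321 CPM with CGRP (-0.46 ± 0.04, adjusted p = 1.9e-06 by edgeR's quasi-likelihood test). TRAM1, a translocon partner, stood at 374, 358 and 374 CPM in the controls and 262, 261 and 264 CPM with CGRP (-0.49 ± 0.04, adjusted p = 1.8e-06), and it rose in high glucose (0.17 ± 0.04, adjusted p = 0.038). The receptor subunit SSR1 stood at 335, 323 and 336 CPM in the controls and 243, 254 and 247 CPM with CGRP (-0.42 ± 0.04, adjusted p = 9.2e-06). The difference from high glucose was -0.49 ± 0.06 for SEC61A1 (adjusted p = 0.0012), -0.66 ± 0.06 for TRAM1 (1.9e-04) and -0.46 ± 0.06 for SSR1 (0.0030), and these 3 calls held without any 1 of the 18 libraries. In all, 7 of the 19 had a lower effect than in high glucose (background 0.391% called, either direction) and 8 than in glucose-deprived medium (3.87%). SEC61B (-0.22, adjusted p = 0.31), SEC61G (-0.41, 0.24) and SRP54 (-0.02, 0.91) did not pass.

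A few other genes, also named after their values were seen, differed between media. PTHLH, the parathyroid hormone-related peptide, stood at 49.2, 49.96 and 45.9 CPM in the controls and 31.4, 33.7 and 33.2 CPM with CGRP (-0.56 ± 0.06), with a difference from high glucose of -0.40 ± 0.08 (adjusted p = 0.043). OLR1, a receptor of oxidised lipoprotein, stood at 96.3, 95.3 and 97.9 CPM in the controls and 135, 132 and 132 CPM with CGRP (0.47 ± 0.04; difference 0.36 ± 0.06, adjusted p = 0.022). CYP1A1, a target of the aryl hydrocarbon receptor, fell in 2-DG medium (-0.78 ± 0.06) by less than in high glucose (-1.30 ± 0.06), a difference of 0.52 ± 0.09 (adjusted p = 0.020).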
